A study of Caenorhabditis elegans with 12 samples.

Results

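The data described here are the difference between a pair of responses to Pseudomonas aeruginosa PA14, measured gene by gene in Caenorhabditis elegans. For each gene, the change on PA14 relative to E. coli in control RNAi worms was subtracted from the same change in worms of libraries labelled stt-3 RNAi. A gene was included where 3 or more of the 12 libraries reached 10, which kept 12908 of the 17430 genes listed. A negative difference means that the gene rose less, or fell more, on PA14 in libraries labelled stt-3 RNAi than it did in control RNAi.

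All worms were of the wild-type strain N2, and RNA was sequenced from whole bodies of adults. Worms were fed RNAi bacteria up to the L4 stage and were then kept for 12 hours on lawns of PA14 or of the same RNAi E. coli. The 4 conditions were stt-3 RNAi with PA14, stt-3 RNAi with E. coli, control RNAi with PA14 and control RNAi with E. coli, with 3 libraries each. RNAi was given by feeding, so every group, the controls included, ate bacteria that make double-stranded RNA. The labels do not say whether the libraries of a condition came from separate cultures. The p-values below thus measure the spread that the authors' normalisation left between these libraries, which may be technical.

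STT-3 is the catalytic subunit of the oligosaccharyl transferase (OST), the complex that attaches N-linked glycans to proteins entering the endoplasmic reticulum (ER). PA14 is a pathogen that colonizes the worm intestine, where the PMK-1/p38 MAP kinase cascade and other pathways such as that of ZIP-2 switch on secreted effectors, lectins and lysozymes. The same intestinal cells digest food with lysosomal and secreted proteases and make the vitellogenins, the yolk proteins that are passed to oocytes.

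The stt-3 transcript was not lower in its labelled libraries. stt-3 (chromosome III, 6248637 to 6251607, WBcel235) had 469, 513 and 551 in libraries labelled stt-3 RNAi on PA14 and 461, 488 and 467 in those on E. coli, against 367, 398 and 434 in control RNAi on PA14 and 421, 398 and 434 in control RNAi on E. coli. ostd-1, another OST subunit, had 114, 100 and 98 on PA14 and 138, 124 and 115 on E. coli in libraries labelled stt-3 RNAi, against 823, 656 and 810 on PA14 and 666, 635 and 624 on E. coli in control RNAi. ostd-1 lies within tom-1 on the other strand, and whether the counting used strand is not given in the sources used here. The libraries are therefore called by their labels throughout. The difference of the PA14 changes passed no threshold for stt-3 (0.18 on the log2 scale, adjusted p = 0.633) or for ostd-1 (-0.51, adjusted p = 0.137).

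The values are the authors' normalised expression values, rounded to whole numbers. Read depth per library is therefore unknown. Their upper quartiles were 161 to 164 in all libraries and their sums 5530614 to 8627187. Between 973 and 1841 genes were listed at 0 per library, apart from 525 in replicate 1 labelled stt-3 RNAi on PA14. Replicate 3 labelled stt-3 RNAi on E. coli stood apart from its group on the first principal component (-38.2, against -74.1 and -89.8), toward the PA14 libraries at 60.3 to 92.6. The main counts without it are given with the results. Of the listed markers of worm tissues, all passed the filter except 1 of 3 for coelomocytes. In RNA from whole worms, fewer cells of a type and less RNA per cell cannot be told apart.

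Among the genes called for a difference between the RNAi groups, the PA14 change was mainly lower in libraries labelled stt-3 RNAi. The difference was called at a Benjamini-Hochberg adjusted p under 0.05 from limma and a size over 2-fold, all on log2(value + 1). It was called lower for 152 genes, 1.18% of those tested, and higher for 30 genes, 0.232% of those tested, together 182 genes or 1.41%. The median difference over all 12908 genes was 0.05, with a median standard error of 0.25, and 43.4% of genes lay below 0. An unadjusted limma p under 0.05 was reached by 1644 of the 12908 genes, 844 with a lower and 800 with a higher PA14 change. The excess of lower genes thus holds for the calls and not at that looser cut. Across genes, which are not independent replicates, the PA14 changes in libraries labelled stt-3 RNAi and in control RNAi, which share no library, had a Pearson correlation of 0.905. The count of lower genes was 96 without control RNAi E. coli replicate 1, 85 without control RNAi PA14 replicate 1, 77 without control RNAi PA14 replicate 3, 100 without replicate 1 and 81 without replicate 2 labelled stt-3 RNAi on PA14. The count of higher genes was 15 without control RNAi PA14 replicate 1, 14 without control RNAi PA14 replicate 3, 18 without replicate 1 labelled stt-3 RNAi on E. coli, 12 without replicate 1 and 11 without replicate 2 labelled stt-3 RNAi on PA14. Without replicate 3 labelled stt-3 RNAi on E. coli, the library that stood apart, 153 genes were lower and 33 higher.

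**Figure D1:**
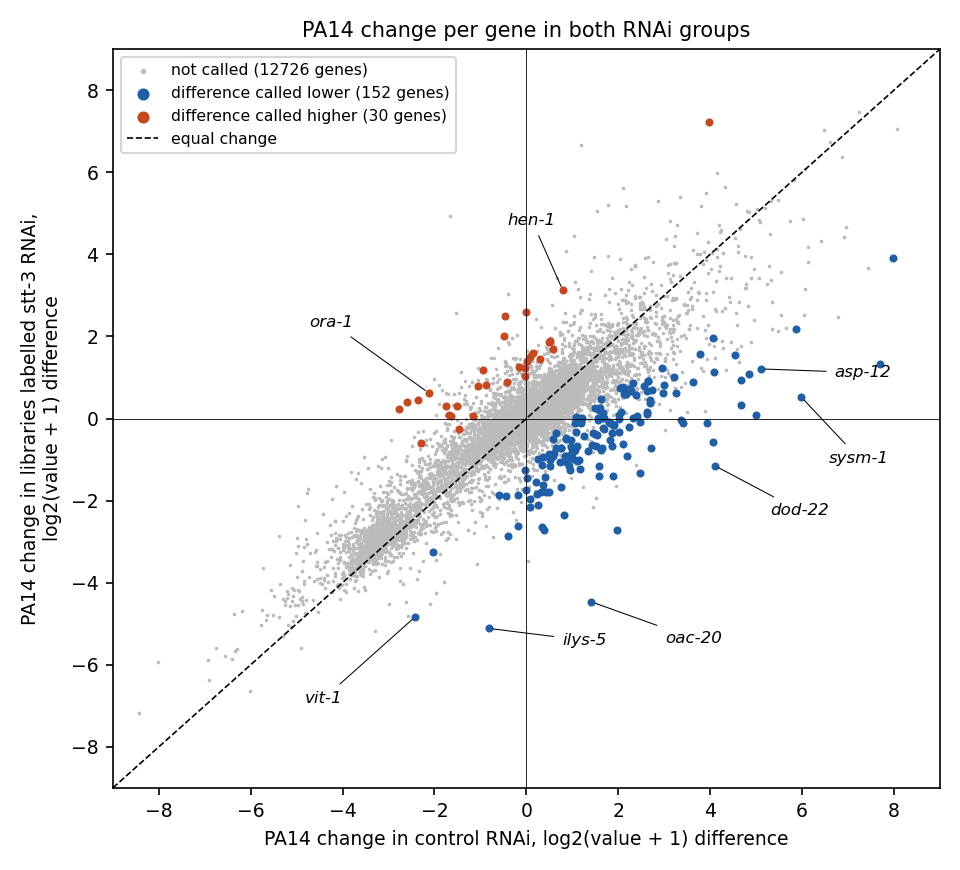
Each point is a gene, with its PA14 change in control RNAi on the horizontal axis and in libraries labelled stt-3 RNAi on the vertical axis, both as log2(value + 1) differences. The dashed line marks equal changes, and the 152 blue genes called lower lie below it while the 30 orange genes called higher lie above it.

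Among the 152 lower genes, 84 were called induced by PA14 in control RNAi and not called in libraries labelled stt-3 RNAi. Another 9 were induced in both groups, and 9 were induced in control RNAi and repressed in libraries labelled stt-3 RNAi. A further 30 were repressed on PA14 in libraries labelled stt-3 RNAi and not called in control RNAi, 2 were repressed in both and 18 were called in neither. The median PA14 change of the lower genes was -0.41 in libraries labelled stt-3 RNAi, against 1.58 in control RNAi. Of the 1381 genes induced in control RNAi (10.7% of those tested), 102 were lower and 1 higher, and their median difference was -0.49. They were chosen by the control RNAi change, which is subtracted in the difference, so a negative median is partly built in. Of the 2047 genes repressed in control RNAi, 2 were lower and 12 higher, with a median of 0.33. Of the 1071 genes induced in libraries labelled stt-3 RNAi, 9 were lower and 16 higher, with a median of 0.01. The 1809 genes repressed in libraries labelled stt-3 RNAi held 41 lower and 0 higher genes, with a median of 0.21. These sets too were each chosen by a term of the difference, which shapes their counts and medians in part. Of the 30 higher genes, 15 were induced in libraries labelled stt-3 RNAi alone and 12 were repressed in control RNAi alone.

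The difference of the PA14 changes equals the RNAi difference (labelled stt-3 RNAi minus control) on PA14 minus the RNAi difference on E. coli. Each gene's difference thus splits into a term for each food. The classes below count calls on each food and had no test of their own. The called genes were chosen by this same difference. How often their libraries lie apart on either food is thus partly built in, also where the share of all genes is given. The lower genes came mainly from the PA14 side. Of the 152, 102 had an RNAi difference called on PA14 and not on E. coli, 20 on E. coli and not on PA14, 17 in the same direction on both, 6 in opposite directions and 7 on neither. The RNAi difference was larger in size on PA14 for 127 of them, 83.6%, and its median was -1.92 on PA14 and -0.05 on E. coli. It was called lower on PA14 for 124 lower genes, where 3.33% of all genes tested were called lower. On E. coli it was called higher for 27 and lower for 16, where 1.98% and 1.23% of all genes were. In 134 of the 152, all 3 libraries labelled stt-3 RNAi on PA14 were below all 3 control RNAi libraries on PA14, a pattern shown by 14.0% of all genes tested.

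Among the 30 higher genes, the RNAi difference was larger in size on PA14 for 22, 73.3%. It was called on PA14 alone for 13, on E. coli alone for 5, in opposite directions for 1, in the same direction for 1 and on neither for 10. Its median was 1.01 on PA14 and -0.41 on E. coli, and 24 of the 30 had a value below 0 on E. coli. In 26 of the 30, all libraries labelled stt-3 RNAi on PA14 were above all control RNAi libraries on PA14, against 16.7% of all genes tested. This too is partly built in by the choice of genes. Over both directions, 115 of 182 called genes differed on PA14 alone and 25 on E. coli alone. The first count was 74 without control RNAi PA14 replicate 1, 63 without control RNAi PA14 replicate 3 and 66 without replicate 2 labelled stt-3 RNAi on PA14. The count for E. coli alone was 9 without control RNAi E. coli replicate 1, 9 without control RNAi PA14 replicate 1, 12 without control RNAi PA14 replicate 3, 9 without replicate 1 and 50 without replicate 2 labelled stt-3 RNAi on E. coli, and 13 without replicate 1 and 12 without replicate 2 labelled stt-3 RNAi on PA14.

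**Figure D2:**
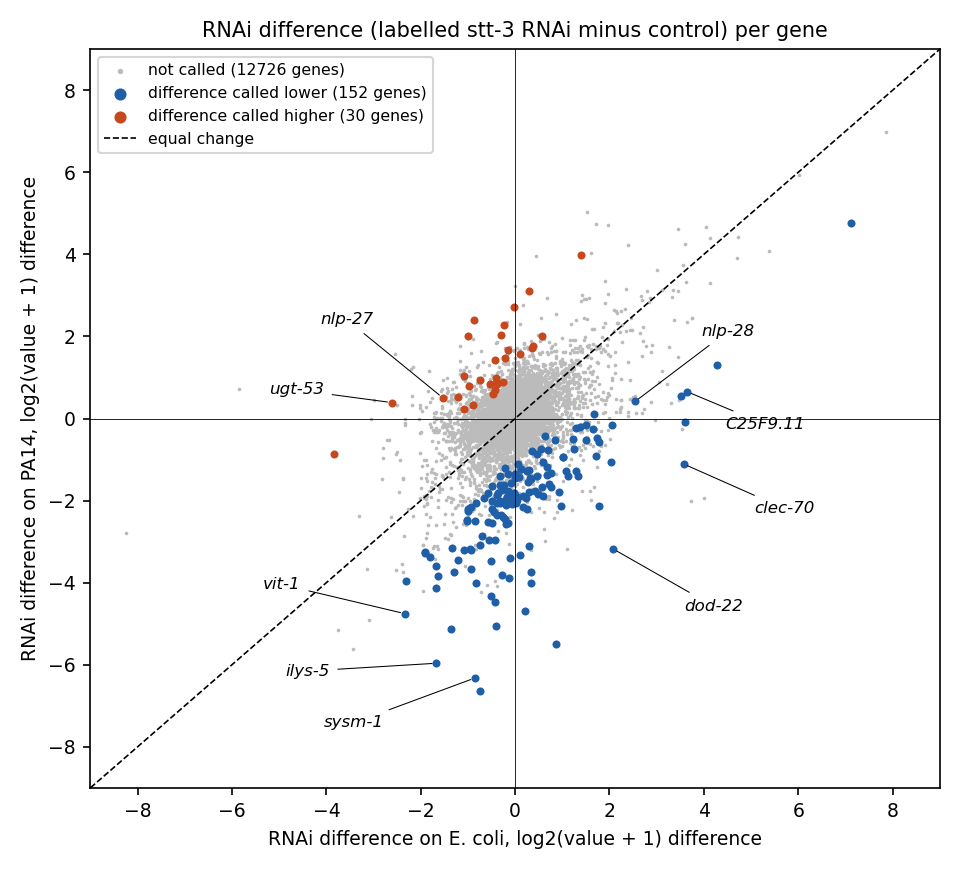
Each point is a gene, with its RNAi difference (labelled stt-3 RNAi minus control RNAi) on E. coli on the horizontal axis and on PA14 on the vertical axis, both as log2(value + 1) differences. Most of the 152 blue genes lie near 0 on the horizontal axis and below 0 on the vertical axis, while nlp-28, C25F9.11 and clec-70 lie to the right and ugt-53 and nlp-27 to the left.

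Effector genes of the PMK-1 pathway were induced less by PA14 in libraries labelled stt-3 RNAi. Of 17 targets tested, 6 were called lower, where 1.18% of all genes tested were. The median difference of the 17 was -2.07, against 0.05 over all genes. PA14 induced 8 of the 17 in libraries labelled stt-3 RNAi and 15 in control RNAi, where 8.30% and 10.7% of all genes tested were induced. sysm-1 (T24B8.5; chromosome II, 9082626 to 9083193), which encodes a small secreted peptide and is widely used as a reporter of PMK-1 activity, had 153, 74 and 174 on PA14 and 177, 40 and 93 on E. coli in libraries labelled stt-3 RNAi, against 14377, 7078 and 10247 on PA14 and 144, 139 and 200 on E. coli in control RNAi. The control RNAi PA14 libraries thus stood far above all 9 others, which overlapped. The PA14 change was 0.52 in libraries labelled stt-3 RNAi and 5.99 in control RNAi, a difference of -5.47 ± 0.694 (SE; adjusted p = 0.00428, limma).

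K08D8.5, a gene with a CUB-like domain, showed the same layout at a lower level, with 79, 67 and 135 on PA14 and 99, 73 and 127 on E. coli in libraries labelled stt-3 RNAi, against 1509, 784 and 1712 on PA14 and 79, 151 and 137 on E. coli in control RNAi. Its difference was -3.53 ± 0.517 (SE; adjusted p = 0.00758). C17H12.8 had 324, 299 and 778 on PA14 and 459, 353 and 512 on E. coli in libraries labelled stt-3 RNAi, against 4550, 2314 and 4709 on PA14 and 176, 516 and 499 on E. coli in control RNAi. Its difference of -3.41 (adjusted p = 0.0318) was not called without control RNAi PA14 replicate 1 or 3, replicate 1 or 3 labelled stt-3 RNAi on E. coli, or replicate 1 or 2 labelled stt-3 RNAi on PA14, with adjusted p between 0.0622 and 0.0986.

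dod-22, a CUB-like gene that also belongs to those controlled by the FOXO factor DAF-16, departed on both foods. It averaged 230 ± 126 on PA14 and 499 ± 231 on E. coli in libraries labelled stt-3 RNAi (SD, n = 3 each), against 2552, 1163 and 2347 on PA14 and 51, 163 and 159 on E. coli in control RNAi. Its RNAi difference was thus -3.18 on PA14 and 2.08 on E. coli, and the difference of the PA14 changes was -5.26 ± 0.745 (SE; adjusted p = 0.00665). The remaining called targets, F55G11.8 (-1.77) and clec-85 (-2.20), are named after their values were seen. The count of 6 targets was 3 without control RNAi PA14 replicate 1 or 3, without replicate 1 or 3 labelled stt-3 RNAi on E. coli and without replicate 1 or 2 labelled stt-3 RNAi on PA14.

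Transcripts of the kinases and factors upstream gave no call. Of the 15 genes listed for the p38 pathway, limma called 0, 2 had an unadjusted p under 0.05 and the median difference was -0.18. Of all 12908 genes tested, 1644 had an unadjusted p under 0.05 and 1.41% were called. The 0 calls among 15 genes thus lie near the share of all genes. pmk-1 had 47, 43 and 45 on PA14 and 38, 41 and 39 on E. coli in libraries labelled stt-3 RNAi, against 45, 38 and 46 on PA14 and 36, 29 and 32 on E. coli in control RNAi. The differences of its upstream kinases sek-1 (0.17) and nsy-1 (0.16), of the adaptor tir-1 (-0.32) and of the transcription factor atf-7 (0.17) all had adjusted p of at least 0.76. Those of skn-1 (-0.31), elt-2 (-0.48), the phosphatase gene vhp-1 (-0.55) and nipi-3 (0.20) also missed the threshold.

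Of 7 genes tested from the ZIP-2 pathway, limma called 0, 2 had an unadjusted p under 0.05 and the median was -0.43. With 1.41% of all genes tested called, 0 of 7 lies near that share. The difference was below 0 for 6 of the 7, down to -1.84. irg-1, an infection response gene induced through ZIP-2, had 909, 526 and 1246 on PA14 and 58, 32 and 49 on E. coli in libraries labelled stt-3 RNAi, against 1008, 406 and 825 on PA14 and 27, 39 and 20 on E. coli in control RNAi. Its difference was -0.41 ± 0.57 (SE; adjusted p = 0.883). irg-2 was likewise raised on PA14 in both groups, by 3.34 in libraries labelled stt-3 RNAi and by 4.13 in control RNAi, and its difference of -0.79 (adjusted p = 0.578) was not called. zip-2 itself differed by -0.43 (adjusted p = 0.44).

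**Figure D3:**
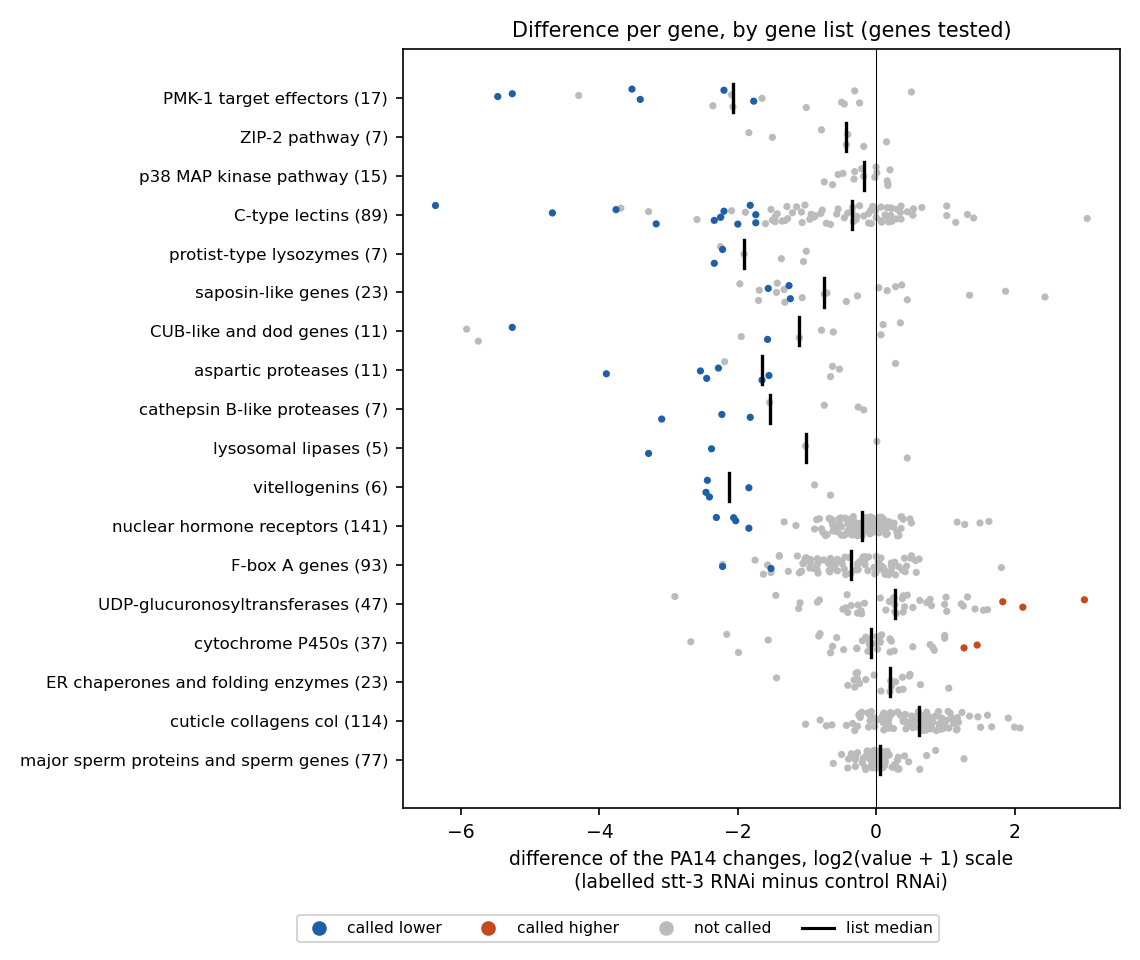
Each point is a gene of one of 18 lists, placed by its difference of the PA14 changes on the log2(value + 1) scale, with the number of genes tested in brackets and the list median as a bar. PMK-1 targets, protist-type lysozymes, the protease lists and vitellogenins have medians between -2.12 and -1.54, while p38 pathway genes (-0.18), ER chaperones (0.20) and sperm genes (0.06) lie near 0.

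Lysozymes, which cleave bacterial cell walls, held the gene with the smallest p of all those tested. ilys-5, an invertebrate-type lysozyme (chromosome X, 6533490 to 6536840), had 56, 59 and 55 on PA14 and 1875, 2322 and 1823 on E. coli in libraries labelled stt-3 RNAi, against 4052, 2881 and 3984 on PA14 and 5940, 6633 and 6543 on E. coli in control RNAi. The 4 conditions did not overlap, and the PA14 libraries labelled stt-3 RNAi were lowest. PA14 lowered ilys-5 by 5.11 on the log2 scale in libraries labelled stt-3 RNAi, against a change of -0.82 in control RNAi, and the difference was -4.29 ± 0.189 (SE; adjusted p = 2.82e-06). Its RNAi difference was called on both foods, -5.96 on PA14 and -1.67 on E. coli.

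PA14 induced 3 of 7 protist-type lysozymes in libraries labelled stt-3 RNAi and 5 in control RNAi, where 8.30% and 10.7% of all genes tested were induced. lys-8 had 1051, 1125 and 1131 on PA14 and 1540, 1053 and 1744 on E. coli in libraries labelled stt-3 RNAi, against 7090, 4617 and 6613 on PA14 and 1450, 1814 and 1704 on E. coli in control RNAi. lys-1 had 1307, 1429 and 2105 on PA14 and 2215, 1872 and 2815 on E. coli in libraries labelled stt-3 RNAi, against 15610, 10198 and 14898 on PA14 and 2907, 4414 and 4207 on E. coli in control RNAi. In both genes the control RNAi PA14 libraries exceeded every other library. Their differences were -2.22 (adjusted p = 0.00411) and -2.34 (adjusted p = 0.00758), and these 2 were the called members of 7 tested, whose median was -1.91. Of all genes tested, 1.18% were called lower.

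C-type lectins, a large family of carbohydrate-binding proteins, had 11 of 89 members called lower, against 1.18% of all genes tested. Their median was -0.35. clec-50 had 1252, 1371 and 1636 on PA14 and 2594, 2512 and 3372 on E. coli in libraries labelled stt-3 RNAi, against 6143, 4971 and 6838 on PA14 and 2190, 3279 and 3573 on E. coli in control RNAi. Its PA14 change was -0.99 in libraries labelled stt-3 RNAi and 1.01 in control RNAi (difference -2.0, adjusted p = 0.00632). clec-174 had 3, 2 and 7 on PA14 and 1, 0 and 2 on E. coli in libraries labelled stt-3 RNAi, against 213, 96 and 433 on PA14 and 0 in every library on E. coli in control RNAi. clec-53, a low-level lectin, had 2, 2 and 3 on PA14 and 17, 15 and 16 on E. coli in libraries labelled stt-3 RNAi, against 65, 45 and 49 on PA14 and 29, 32 and 27 on E. coli in control RNAi. The count of 11 included both copies of clec-209, whose values were nearly identical and which may share reads. Another 3 of them, clec-174, clec-70 and clec-72 (the last named after its values were seen), reached 10 in the libraries of 1 condition alone, and so passed the filter only through the group where they were high. Leaving out all 8 lectins of this kind left 8 called of 81. The count of 11 was 5, 6 and 7 without control RNAi E. coli replicates 1, 2 and 3, 4 without control RNAi PA14 replicate 1 or 3, 5 and 7 without replicates 1 and 3 labelled stt-3 RNAi on E. coli, and 5 without replicate 1 or 2 labelled stt-3 RNAi on PA14.

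Saposin-like genes, some of which encode pore-forming peptides, had 3 of 23 members called lower, against 1.18% of all genes tested. Their median was -0.75. The count depended on single libraries. It was 0 without control RNAi E. coli replicate 1, control RNAi PA14 replicate 1 or 3 or replicate 2 labelled stt-3 RNAi on PA14, 1 without control RNAi E. coli replicate 2 or 3, replicate 1 labelled stt-3 RNAi on E. coli or replicate 1 or 3 labelled stt-3 RNAi on PA14, 6 without control RNAi PA14 replicate 2 and 5 without replicate 3 labelled stt-3 RNAi on E. coli.

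Digestive and lysosomal proteases were a further group of lower genes. Of 11 aspartic proteases, the family of cathepsin D, 6 were called lower, against 1.18% of all genes tested, and the median was -1.65. That count was 4 without control RNAi PA14 replicate 3 or replicate 2 labelled stt-3 RNAi on PA14. It was 5 without replicate 1 labelled stt-3 RNAi on PA14. The RNAi difference was called lower on PA14 for 10 of the 11 and on E. coli for 2. Of all genes tested, 3.33% and 1.23% were called so. asp-2 (chromosome V, 9203077 to 9204734) had 222, 231 and 247 on PA14 and 802, 779 and 837 on E. coli in libraries labelled stt-3 RNAi, against 2592, 1756 and 2228 on PA14 and 1434, 1641 and 1527 on E. coli in control RNAi. No condition overlapped another, and the difference was -2.28 ± 0.171 (SE; adjusted p = 0.000346). asp-2 overlaps inx-10 on the other strand.

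asp-6, asp-12 and asp-5 lie side by side on chromosome V, between 8267511 and 8274044. asp-6 had 5325, 5421 and 6417 on PA14 and 6004, 5082 and 9510 on E. coli in libraries labelled stt-3 RNAi, against 30254, 19310 and 30488 on PA14 and 4375, 5977 and 6529 on E. coli in control RNAi. asp-5 had 1371, 1288 and 1916 on PA14 and 2351, 2032 and 2868 on E. coli in libraries labelled stt-3 RNAi, against 13863, 9131 and 12528 on PA14 and 2724, 3342 and 3577 on E. coli in control RNAi. Both were raised on PA14 in control RNAi alone, and their differences were -2.45 (adjusted p = 0.00758) and -2.54 (adjusted p = 0.00242). asp-12 had 199, 125 and 206 on PA14 and 113, 38 and 94 on E. coli in libraries labelled stt-3 RNAi, against 939, 550 and 827 on PA14 and 17, 19 and 28 on E. coli in control RNAi. For asp-12 libraries labelled stt-3 RNAi were lower than control RNAi on PA14 (-2.12) and higher on E. coli (1.78), and the difference was -3.90 (adjusted p = 0.00608). asp-1 (-1.65) and asp-3 (-1.55), named after their values were seen, were the other called members.

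Cathepsin B-like cysteine proteases had 3 of 7 members called lower, against 1.18% of all genes tested, with a median of -1.54. cpr-1 had 356, 553 and 471 on PA14 and 2323, 2548 and 4550 on E. coli in libraries labelled stt-3 RNAi, against 1688, 1714 and 2685 on PA14 and 1165, 1632 and 1855 on E. coli in control RNAi. It was lowest on PA14 in libraries labelled stt-3 RNAi, and overlapped between foods in control RNAi (difference -3.10, adjusted p = 0.00477). cpr-4 had 371, 430 and 421 on PA14 and 1384, 1649 and 2564 on E. coli in libraries labelled stt-3 RNAi, against 4141, 3941 and 5306 on PA14 and 3125, 5300 and 4414 on E. coli in control RNAi. Control RNAi libraries overlapped between foods here too, and PA14 lowered cpr-4 by 2.15 in libraries labelled stt-3 RNAi (difference -2.23, adjusted p = 0.00847). cpr-9, induced on PA14 in control RNAi, differed by -1.82 (adjusted p = 0.00842).

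Of 5 lysosomal lipases, 2 were called lower, against 1.18% of all genes tested, and the median was -1.02. lipl-5, a lysosomal acid lipase-like gene, had 213, 256 and 315 on PA14 and 945, 1104 and 1363 on E. coli in libraries labelled stt-3 RNAi, against 1476, 1364 and 1787 on PA14 and 828, 1522 and 1663 on E. coli in control RNAi, a difference of -2.38 (adjusted p = 0.00847). aagr-2, an acid alpha-glucosidase, had 155, 147 and 173 on PA14 and 284, 260 and 297 on E. coli in libraries labelled stt-3 RNAi, against 494, 392 and 509 on PA14 and 230, 225 and 236 on E. coli in control RNAi. Its RNAi difference was -1.54 on PA14 and 0.28 on E. coli, and the difference of the PA14 changes was -1.82 (adjusted p = 0.000492). asah-1, an acid ceramidase, had 161, 178 and 141 on PA14 and 459, 290 and 570 on E. coli in libraries labelled stt-3 RNAi, against 1888, 1506 and 2015 on PA14 and 712, 539 and 561 on E. coli in control RNAi (difference -2.98, adjusted p = 0.00178). In a list of lysosomal hydrolases drawn up after the values were seen, and so a description only, 8 of 29 tested genes were called lower and the median was -0.53, among them the DNase II gene nuc-1 (-1.83), asah-2 (-2.17) and aagr-1 (-1.76).

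Vitellogenin genes had 4 of 6 members called lower, against 1.18% of all genes tested, and a median of -2.12. vit-3 (chromosome X, 3567355 to 3572549) had 464, 592 and 519 on PA14 and 3931, 4239 and 3261 on E. coli in libraries labelled stt-3 RNAi, against 9291, 6936 and 12051 on PA14 and 12155, 10696 and 13655 on E. coli in control RNAi. vit-4 (chromosome X, 3558769 to 3563965) had 681, 793 and 763 on PA14 and 5226, 4951 and 3715 on E. coli in libraries labelled stt-3 RNAi, against 9667, 7950 and 12616 on PA14 and 11024, 9737 and 13054 on E. coli in control RNAi. In both, PA14 lowered the level in libraries labelled stt-3 RNAi, by 2.86 and 2.62 on the log2 scale, while the control RNAi libraries overlapped between foods. Their differences were -2.46 ± 0.265 (SE; adjusted p = 0.00202) and -2.44 ± 0.257 (SE; adjusted p = 0.00178), and the RNAi difference was called lower on both foods. These neighbouring genes are close copies, so that reads may be shared between them, and each overlaps a gene on the other strand.

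vit-5 had 6100, 6104 and 7397 on PA14 and 11407, 10947 and 12755 on E. coli in libraries labelled stt-3 RNAi, against 31402, 26706 and 38148 on PA14 and 16027, 13992 and 18083 on E. coli in control RNAi. Its PA14 change was -0.84 in libraries labelled stt-3 RNAi and 0.99 in control RNAi, a difference of -1.84 (adjusted p = 0.00259). vit-1 had 46, 67 and 48 on PA14 and 1981, 1957 and 932 on E. coli in libraries labelled stt-3 RNAi, against 1293, 1472 and 1612 on PA14 and 8449, 6367 and 8756 on E. coli in control RNAi. vit-1 was thus repressed by PA14 in both groups, and more so in libraries labelled stt-3 RNAi (difference -2.41, adjusted p = 0.0107). vit-2 (-0.89, adjusted p = 0.114) and vit-6 (-0.66, adjusted p = 0.347) were not called. The 4 calls held in every leave-one-out fit.

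**Figure D4:**
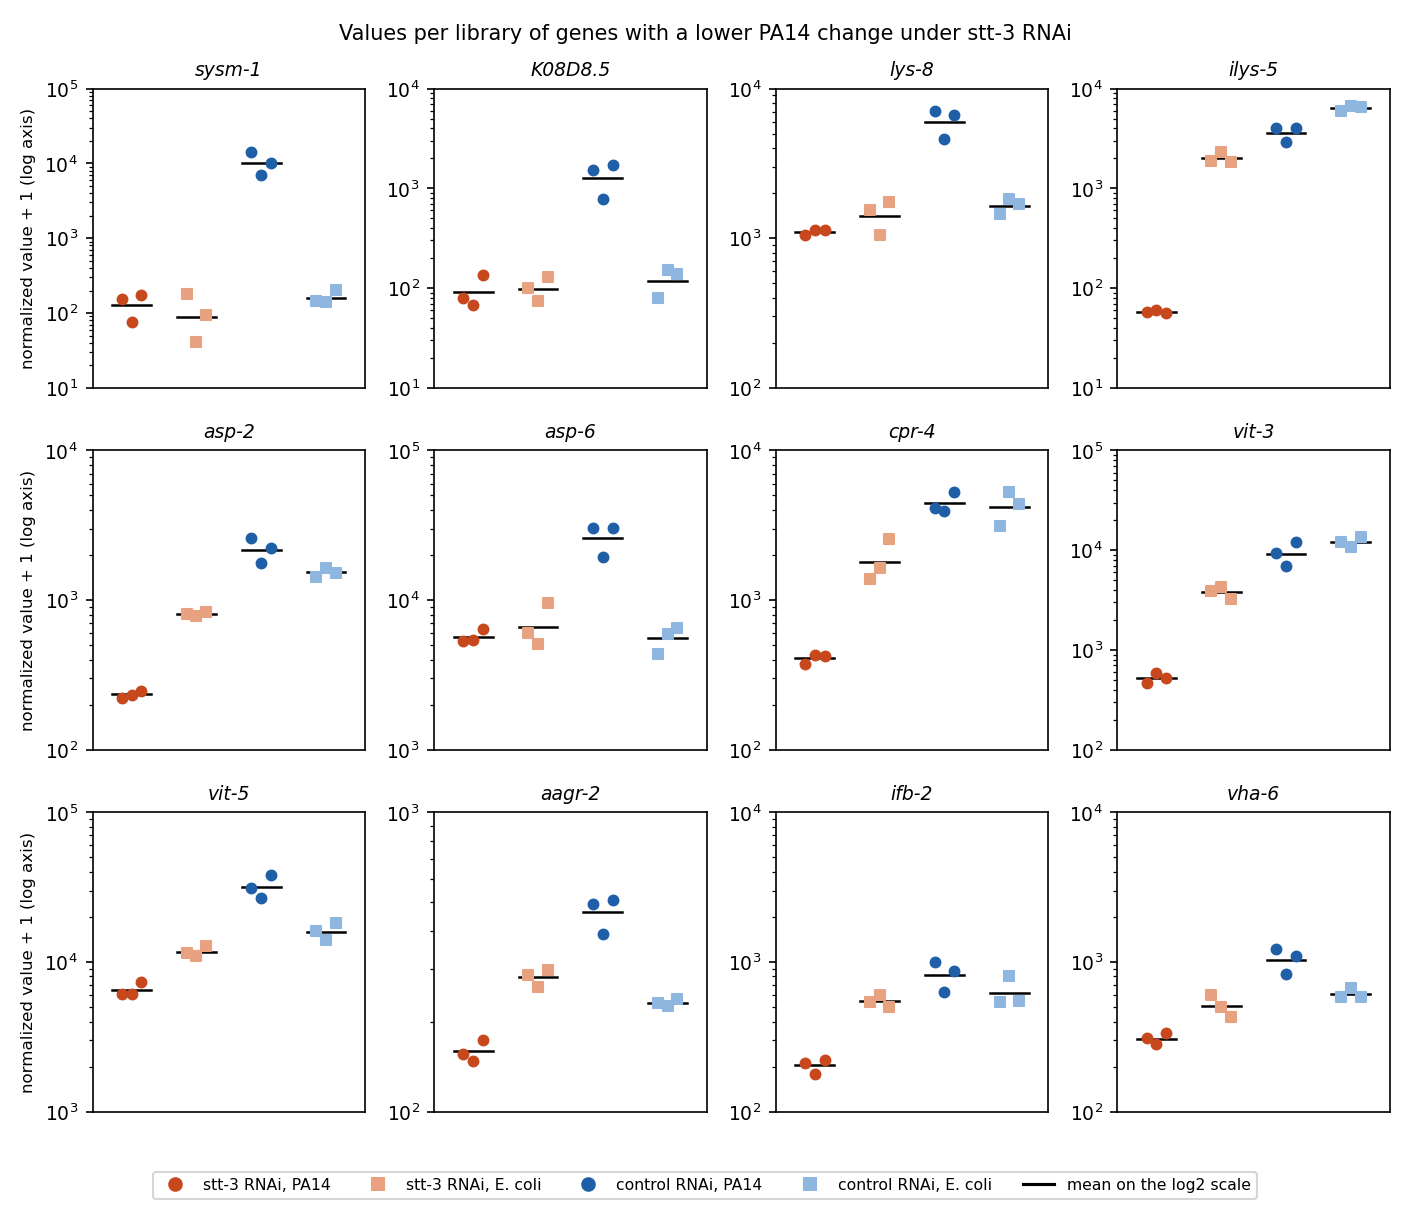
Values + 1 per library on a log axis for 12 genes with a negative difference, in the order labelled stt-3 RNAi on PA14, labelled stt-3 RNAi on E. coli, control RNAi on PA14 and control RNAi on E. coli, 3 libraries each. sysm-1, lys-8 and asp-6 are high in control RNAi on PA14 alone, whereas ilys-5 and vit-3 are lowest in libraries labelled stt-3 RNAi on PA14.

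Many of these genes are expressed in the intestine, and 2 of 7 intestine markers were themselves called lower, against 1.18% of all genes tested. The median over the list was -0.67. ifb-2, an intermediate filament of the gut lining, had 212, 177 and 222 on PA14 and 536, 598 and 501 on E. coli in libraries labelled stt-3 RNAi, against 998, 632 and 867 on PA14 and 539, 799 and 546 on E. coli in control RNAi (difference -1.82, adjusted p = 0.00758). vha-6, an apical proton pump subunit, differed by -1.48 (adjusted p = 0.00758). The other markers, ges-1 (-0.78), elt-7 (-0.67), elt-2 (-0.48), act-5 (-0.48) and pept-1 (-0.30), were not called, and none of the 7 was at 0. The summed level of the 7 markers was 2485 to 3299 on PA14 and 2499 to 5374 on E. coli in libraries labelled stt-3 RNAi, against 5382 to 9023 on PA14 and 4762 to 7140 on E. coli in control RNAi. Most of that sum was act-5, and without it the other 6 summed to 804 to 905 on PA14 and 1268 to 1491 on E. coli in libraries labelled stt-3 RNAi, against 1804 to 2656 on PA14 and 1411 to 1802 on E. coli in control RNAi. The RNAi difference of ges-1 was 0.03 on PA14 and 0.81 on E. coli. The part of this shift in the results for proteases, lysozymes and vitellogenins was not tested. Of 35 markers tested for epidermis, muscle, pharynx, neurons, germline, sperm, oocytes and coelomocytes, limma called 0 and 2 had an unadjusted p under 0.05. Over all genes tested, 1644 of 12908 had such a p and 1.41% were called, so 0 of 35 lies near that share.

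A smaller set came from the E. coli side, where libraries labelled stt-3 RNAi stood higher on E. coli. nlp-28, an antimicrobial peptide gene known from the epidermis (chromosome V, 3987900 to 3988316), had 2603, 2025 and 2090 on PA14 and 5027, 3973 and 4674 on E. coli in libraries labelled stt-3 RNAi, against 1642, 1538 and 1827 on PA14 and 506, 951 and 968 on E. coli in control RNAi. PA14 changed it by -1.03 in libraries labelled stt-3 RNAi and by 1.10 in control RNAi, and its RNAi difference was 0.42 on PA14 and 2.55 on E. coli (difference -2.13 ± 0.311, SE; adjusted p = 0.00758). fbxa-105, an F-box gene, had 155, 88 and 146 on PA14 and 79, 51 and 60 on E. coli in libraries labelled stt-3 RNAi, against 182, 99 and 157 on PA14 and 10, 16 and 18 on E. coli in control RNAi. Its levels on PA14 overlapped between RNAi groups and those on E. coli did not. Its difference of -2.22 (adjusted p = 0.0283) was not called without control RNAi E. coli replicate 1 or 2, control RNAi PA14 replicate 1 or 3, replicate 1 labelled stt-3 RNAi on E. coli or replicate 2 labelled stt-3 RNAi on PA14, with adjusted p between 0.0514 and 0.0916.

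spp-8, a saposin-like gene, had 2416, 2763 and 2414 on PA14 and 1681, 1154 and 2361 on E. coli in libraries labelled stt-3 RNAi, against 2493, 1882 and 2665 on PA14 and 505, 500 and 546 on E. coli in control RNAi. clec-85, named after its values were seen, had 3485, 2055 and 3410 on PA14 and 1643, 693 and 808 on E. coli in libraries labelled stt-3 RNAi, against 5056, 2806 and 4611 on PA14 and 260, 317 and 305 on E. coli in control RNAi. In both genes the PA14 levels overlapped between RNAi groups, and the E. coli levels were higher in libraries labelled stt-3 RNAi, by 1.68 and 1.73. The call for spp-8 (difference -1.56, adjusted p = 0.0318) held only without control RNAi PA14 replicate 2 or replicate 2 or 3 labelled stt-3 RNAi on E. coli among the leave-one-out fits, and the other 9 gave adjusted p between 0.0633 and 0.0969. Also named after their values were seen, irg-7 (-2.0), C25F9.11 (-3.0) and Y41D4B.17 (-3.68) had RNAi differences of 1.26, 3.65 and 3.61 on E. coli and none called on PA14.

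The genes with a higher PA14 change in libraries labelled stt-3 RNAi were of mixed function, and included genes repressed by PA14 in control RNAi alone as well as genes induced in libraries labelled stt-3 RNAi alone. ora-1, named for its similarity to an antigen of the parasite Onchocerca, had 73, 45 and 40 on PA14 and 26, 46 and 29 on E. coli in libraries labelled stt-3 RNAi, against 6, 9 and 6 on PA14 and 30, 40 and 31 on E. coli in control RNAi. It fell on PA14 in control RNAi alone (difference 2.75 ± 0.391, SE; adjusted p = 0.00672). paic-1, an enzyme of purine synthesis, behaved alike, with 362, 355 and 321 on PA14 and 230, 253 and 135 on E. coli in libraries labelled stt-3 RNAi, against 133, 121 and 133 on PA14 and 272, 294 and 239 on E. coli in control RNAi (difference 1.84, adjusted p = 0.00823). hen-1, which encodes a secreted protein with a role in learning, had 67, 60 and 55 on PA14 and 4, 6 and 9 on E. coli in libraries labelled stt-3 RNAi, against 19, 12 and 12 on PA14 and 8, 8 and 7 on E. coli in control RNAi (difference 2.33, adjusted p = 0.0109). Induction of hen-1 was thus called in libraries labelled stt-3 RNAi and not in control RNAi. fpn-1.1, a ferroportin-related iron exporter gene, had 269, 233 and 218 on PA14 and 97, 89 and 77 on E. coli in libraries labelled stt-3 RNAi, against 144, 116 and 126 on PA14 and 109, 111 and 95 on E. coli in control RNAi (difference 1.15, adjusted p = 0.00847).

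nlp-27 (chromosome V, 3989378 to 3989770), a neighbour of nlp-28 in the same peptide cluster, differed in the opposite direction. It had 3034, 2049 and 1953 on PA14 and 1868, 2817 and 1238 on E. coli in libraries labelled stt-3 RNAi, against 1526, 1575 and 1753 on PA14 and 4633, 6666 and 5147 on E. coli in control RNAi. The RNAi difference was called on E. coli (-1.54) and not on PA14 (0.51), and the difference of 2.04 had an adjusted p of 0.0236. That call was lost without control RNAi E. coli replicate 2 or 3, control RNAi PA14 replicate 1 or 3, replicate 1 labelled stt-3 RNAi on E. coli or replicate 1 or 2 labelled stt-3 RNAi on PA14, with adjusted p between 0.0524 and 0.0713.

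UDP-glucuronosyltransferases, which conjugate sugars to foreign compounds, had 3 of 47 members called higher, against 0.232% of all genes tested, and a median of 0.27. ugt-53 had 9, 8 and 6 on PA14 and 6, 10 and 4 on E. coli in libraries labelled stt-3 RNAi, against 6, 7 and 4 on PA14 and 51, 51 and 32 on E. coli in control RNAi. Only the control RNAi E. coli libraries were high, so the difference of 3.01 (adjusted p = 0.00868) came from E. coli. The count of 3 was 1 without control RNAi PA14 replicate 1 or 3, replicate 1 labelled stt-3 RNAi on E. coli or replicate 1 or 2 labelled stt-3 RNAi on PA14. Of 37 cytochrome P450 genes, 2 were called higher, against 0.232% of all genes tested. That count was 1 without control RNAi E. coli replicate 1 or control RNAi PA14 replicate 1. It was 0 without control RNAi PA14 replicate 3 or replicate 1 labelled stt-3 RNAi on E. coli. It was also 0 without replicate 1 or 2 labelled stt-3 RNAi on PA14.

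**Figure D5:**
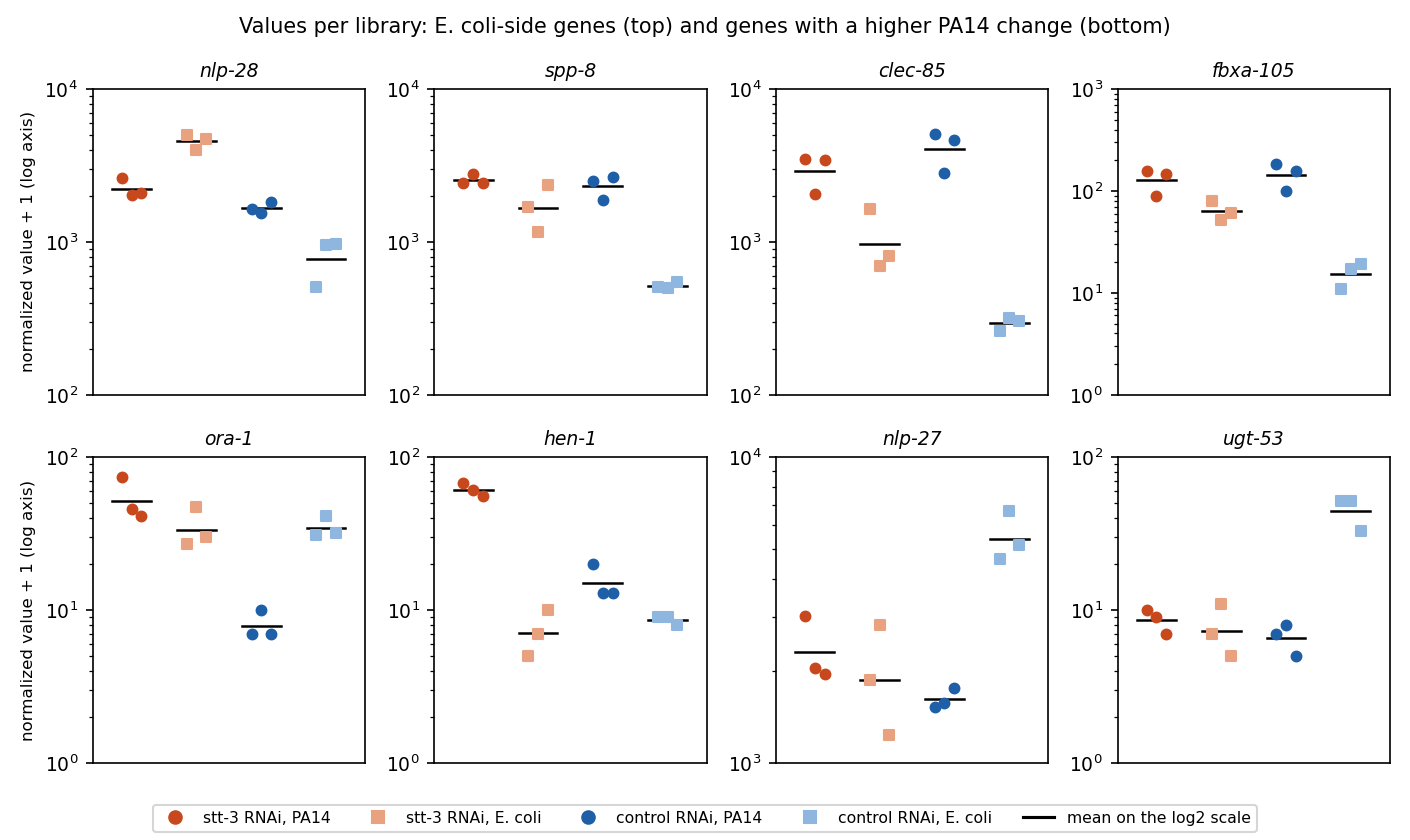
Values + 1 per library on a log axis for 8 genes, in the order labelled stt-3 RNAi on PA14, labelled stt-3 RNAi on E. coli, control RNAi on PA14 and control RNAi on E. coli, 3 libraries each. In the top row (nlp-28, spp-8, clec-85, fbxa-105) control RNAi on E. coli is lowest, and in the bottom row (ora-1, hen-1, nlp-27, ugt-53) the difference is positive.

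Several ER chaperones were higher in libraries labelled stt-3 RNAi on both foods, and their PA14 changes gave no call. Of 23 chaperone and folding genes, limma called 0, near the share of 1.41% called of all genes tested. Among the 23, 4 had an unadjusted p under 0.05 and the median difference was 0.20. Their RNAi difference was called higher for 10 of the 23 on PA14 and 10 on E. coli. Of all genes tested, 1.98% were called higher on PA14 and 1.98% on E. coli. hsp-4, the worm BiP, had 8158, 8413 and 9999 on PA14 and 7193, 6528 and 3507 on E. coli in libraries labelled stt-3 RNAi, against 1362, 1216 and 1743 on PA14 and 1231, 1147 and 1357 on E. coli in control RNAi (difference 0.49 ± 0.335, SE; adjusted p = 0.657). hsp-3 (0.22) and enpl-1 (0.64, adjusted p = 0.103) were not called either. xbp-1, the transcription factor gene of the unfolded protein response, had 944, 917 and 1102 on PA14 and 889, 801 and 750 on E. coli in libraries labelled stt-3 RNAi, against 906, 734 and 971 on PA14 and 423, 464 and 506 on E. coli in control RNAi (difference -0.62, adjusted p = 0.114). It stood lowest in control RNAi on E. coli.

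Further families held called genes. Nuclear hormone receptors, a large family of transcription factors, had 4 of 141 members called lower and a median of -0.20. That was 2.84%, against 1.18% of all genes tested. PA14 induced 7 of the 141 in libraries labelled stt-3 RNAi and 28 in control RNAi. Of all genes tested, 8.30% and 10.7% were induced. nhr-168 had 17, 13 and 14 on PA14 and 19, 13 and 12 on E. coli in libraries labelled stt-3 RNAi, against 56, 28 and 61 on PA14 and 8, 8 and 9 on E. coli in control RNAi (difference -2.31, adjusted p = 0.0173). Its call was lost without control RNAi PA14 replicate 1 or 3 or replicate 2 labelled stt-3 RNAi on PA14, with adjusted p between 0.0536 and 0.0619. The family's count was 0 without the same libraries, 1 without control RNAi E. coli replicate 1 or 3 or replicate 1 labelled stt-3 RNAi on E. coli, and 2 without control RNAi E. coli replicate 2 or replicate 1 labelled stt-3 RNAi on PA14. oac-20, of a family of acyltransferase-like genes, was listed at 0 in all 3 libraries labelled stt-3 RNAi on PA14 and had 21, 16 and 28 in those on E. coli, against 183, 65 and 80 on PA14 and 26, 57 and 32 on E. coli in control RNAi. fat-3, the desaturase that starts the synthesis of long polyunsaturated fatty acids, had 385, 276 and 290 on PA14 and 504, 491 and 562 on E. coli in libraries labelled stt-3 RNAi, against 1038, 772 and 761 on PA14 and 564, 521 and 435 on E. coli in control RNAi (difference -1.47, adjusted p = 0.00847). The PA14 libraries were the lowest under stt-3 RNAi labels and the highest in control RNAi. In a family grouped after its values were seen, and so a description only, 7 of 11 nspg genes were lower, with differences between -4.08 and -1.23 among the called genes.

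Lists with a strong PA14 response of their own could hold few or no called members. As 1.41% of all genes tested were called, such counts lie near that share. Of 77 sperm genes, limma called 0, and 69 were repressed by PA14 in libraries labelled stt-3 RNAi and 69 in control RNAi, where 14.0% and 15.9% of all genes tested were repressed. Their median difference was 0.06, and 1 had an unadjusted p under 0.05. Of 114 col collagens, which build the cuticle, limma called 0, and 80 were repressed in libraries labelled stt-3 RNAi and 90 in control RNAi. Their median difference was 0.62, and 17 had an unadjusted p under 0.05, 16 of them with a difference above 0. Over all genes tested, 1644 of 12908 had such a p, 800 of them with a difference above 0. Of 93 F-box A genes, 35 were induced in libraries labelled stt-3 RNAi and 50 in control RNAi, where 8.30% and 10.7% of all genes tested were induced. The difference was called lower for 2 of the 93 (2.15%, against 1.18% of all genes tested). That count was 0 without control RNAi E. coli replicate 1 or 2, control RNAi PA14 replicate 1 or 3, replicate 1 labelled stt-3 RNAi on E. coli or replicate 2 labelled stt-3 RNAi on PA14, 1 without replicate 3 labelled stt-3 RNAi on E. coli or replicate 1 labelled stt-3 RNAi on PA14, and 5 without control RNAi PA14 replicate 2. Ribosomal proteins (78 genes, median 0.12), proteasome subunits (33 genes, 0.04) and oocyte and eggshell genes (21 genes, -0.20) gave 0 calls and 2, 0 and 2 genes with an unadjusted p under 0.05.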

How the data were processed

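RNA of whole worms was prepared as TruSeq v2 libraries. The authors aligned reads to WBcel235 (ce11) with HISAT2 2.0.5, quantified genes with StringTie 1.3.3b and Ballgown, and normalised the values to upper quartiles and then with RUVSeq on control genes. The deposited values are such normalised values rounded to whole numbers and headed as counts, and were treated as a score, not as read counts; depth and counting error are therefore unknown, and count models were not used. The control genes, annotation release and strand setting are not given in the sources used here. What the authors' RUVSeq step did to the differences between groups, and to the spread between libraries that the p-values rest on, was not tested.

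A gene was kept where 3 or more of the 12 libraries reached 10. log2(value + 1), which understates changes of low genes, was fitted with 1 mean for each of 4 conditions in limma 3.58.1 (R 4.3.3; empirical Bayes with a mean-variance trend), and the contrast of contrasts was tested two-sided with Benjamini-Hochberg adjustment over all 12908 genes. Genes with adjusted p under 0.05 and over 2-fold were called. The scripts were tested on simulated data. Just inside the filter, 346 genes reached 10 in exactly 3 libraries (median highest value 15.5); just outside, 393 reached it in 2 (median 13.0). Among 182 called genes, 136 had at least 10 in all libraries, 8 reached 10 in 1 condition alone and 44 overlap a gene on the other strand. Symbols were matched for 16626 of 17430 identifiers.

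Members and 46 gene lists were chosen with earlier results of these data known. Named genes were the 12 called genes per direction with the smallest p and a mean of at least 50 in a condition, the 4 called genes with the smallest p per list, and genes the study discusses; genes outside this rule are said to be named after their values were seen. Alternatives covered the filter, pseudocount, scaling, variance model, threshold, a replicate block and leaving out each library.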

Additional observations from a re-analysis of the deposited data

Results flagged for a closer look

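For each gene below, the PA14 change differed between the libraries labelled stt-3 RNAi and control RNAi by the test of the difference itself (limma, adjusted p under 0.05), which is why it is listed. Values are log2(value + 1) differences of the PA14 changes, labelled stt-3 RNAi minus control RNAi.

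Among immune effectors, the difference was -5.47 for sysm-1, -5.26 for dod-22, -3.53 for K08D8.5, -3.41 for C17H12.8 and -1.57 for dod-23. Lysozymes gave -4.29 for ilys-5, -2.34 for lys-1 and -2.22 for lys-8. Lectins gave -6.37 for clec-174, -4.68 for clec-70, -3.18 for clec-53 and -2.0 for clec-50. Of these, clec-174 reached 10 in control RNAi on PA14 alone and clec-70 on E. coli alone under stt-3 RNAi labels, so each passed the filter only through that condition, and their values moved to -4.12 and -1.49 with a pseudocount of 10. Saposin-like genes gave -1.56 for spp-8, -1.26 for spp-4 and -1.24 for spp-14, and the peptide gene nlp-28 gave -2.13.

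Proteases gave -3.90 for asp-12, -2.54 for asp-5, -2.45 for asp-6, -2.28 for asp-2, -3.10 for cpr-1, -2.23 for cpr-4 and -1.82 for cpr-9. Other enzymes of lysosomes and lipids gave -3.29 for lipl-1, -2.38 for lipl-5, -2.98 for asah-1, -1.82 for aagr-2 and -1.47 for fat-3. Yolk protein genes gave -2.46 for vit-3, -2.44 for vit-4, -2.41 for vit-1 and -1.84 for vit-5.

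Further negative differences were found for oac-20 at -5.89 (values of 0 in a condition, between -6.86 and -2.87 over the alternatives), oac-6 at -3.43, nhr-168 at -2.31, nhr-99 at -2.06, nhr-50 at -2.03, nhr-55 at -1.84, fbxa-105 at -2.22, fbxa-82 at -1.52, pals-16 at -1.66, gst-28 at -1.46, nspg-6 at -2.14, W02D7.4 at -1.97, C24B9.3 at -1.46, the antisense RNA F19C6.8, whose reads cannot be told apart from those of grk-1 without strand, at -2.22, and the near-identical copies of pud-2.2, which may share reads, at -1.37 and -1.36.

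Higher genes were ugt-53 (3.01), ora-1 (2.75), hen-1 (2.33), ugt-9 (2.12), nlp-27 (2.04), paic-1 (1.84), ugt-1 (1.83), F38B6.4 (1.77), srdh-1 (1.71), K10C2.7 (1.68), cyp-33C8 (1.46), ZK669.2 (1.39), the histone gene his-14 (1.36, with a near-identical copy), cyp-29A3 (1.27), fpn-1.1 (1.15) and srp-2 (1.07). Of these, ugt-53 passed the filter only through control RNAi on E. coli, where it was high.

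Some of these calls were held by few settings. Of 22 or 23 alternatives, ugt-1 stayed called in 7, nhr-50 in 8, gst-28 in 9, oac-6 in 10, dod-23 and spp-8 in 11, nhr-99, spp-4 and fbxa-82 in 12, and srp-2, pals-16 and both copies of pud-2.2 in 13.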

How the results depend on the processing

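The 152 lower, 30 higher, 115 PA14-alone and 25 E. coli-alone genes were recounted under 23 alternatives. Against the 2-fold threshold itself (limma treat) 4 were lower (ilys-5, asp-2, clec-53 and oac-20), 0 higher, 4 on PA14 alone and 0 on E. coli alone, so most calls rest on a change above 0 and not above 2-fold. With a mean value of at least 50, 14 were higher and 15 on E. coli alone; without a fold threshold, 54 were higher. Leaving out each library gave 77 to 201 lower, 11 to 45 higher, 63 to 145 on PA14 alone and 9 to 50 on E. coli alone. The share of lower calls was 74.8% to 89.6%, and 100% with treat. Scaling moved the median difference of all genes to between -0.009 and 0.021, from 0.047.

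With the replicate number as a block, 205 genes were lower, 42 higher, 141 on PA14 alone and 44 on E. coli alone, and 149 of the 152 lower genes remained. PMK-1 targets then had 10 lower genes in place of 6, saposin-like genes 6 in place of 3, F-box A genes 4 in place of 2 and C-type lectins 15 in place of 11. The labels give no meaning to the number. Deviations of same-numbered libraries correlated at 0.534, 0.255 and 0.394 between the PA14 groups, each library there matching its own number best. Between the E. coli groups they correlated at 0.019, 0.369 and 0.457 for replicates 1, 2 and 3. Across foods they correlated between -0.101 and 0.243, so the numbers were not taken as pairs over the 4 conditions. The main fit therefore has no term for spread that same-numbered libraries share within a food. Such spread stays in the spread that its p-values rest on.

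Among named genes, ilys-5 and asp-2 stayed called in all 23 alternatives. Over all named genes and alternatives, 1706 values kept direction and call, 258 lost the call and 6 changed sign, all 6 of genes that were not called: hsp-3 (-0.01 to 0.47 with each library left out, below 0 without replicate 3 labelled stt-3 RNAi on E. coli), ire-1 (-0.17 to 0.00, at 0.00 without control RNAi E. coli replicate 2), atf-7 (-0.07 to 0.43, with -0.02 without control RNAi E. coli replicate 1 and -0.07 without replicate 3 labelled stt-3 RNAi on PA14) and hsp-60 (-0.04 to 0.22, with -0.00 without control RNAi E. coli replicate 1 and -0.04 without replicate 3 labelled stt-3 RNAi on E. coli). The cause of these moves was not tested. Depth is unknown and 3 libraries per condition limit the precision: with a median standard error of 0.25, a gene without a call may still differ.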
